A study of Mus musculus with 37 samples.

Results

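The comparison described here set the hearts of mouse embryos with 1 working Isl1 allele against hearts with both. Libraries were assigned by title: 18 of the 37 libraries of the series carried Isl1 +/- in their title, and the other 19 were Isl1 +/+. RNA was sequenced in bulk, as read pairs, from dissected hearts of stage E10.5. Each Isl1 group held hearts of both Nipbl genotypes. The Isl1 +/- group combined 9 Nipbl +/+ hearts, called Isl1_het, with 9 Nipbl +/- hearts, called double_het. The Isl1 +/+ group combined 10 Nipbl +/+ hearts, called wild_type, with 9 Nipbl +/- hearts, called Nipbl_het. The Isl1 mutation is an insertion of Cre recombinase into 1 Isl1 allele, inherited from the mother, so that each Isl1 +/- heart also carried Cre, and the effect of Cre cannot be told apart from that of the lost Isl1 allele. Fathers were Nipbl Flox/+ with Stra8-iCre, a Cre of the male germ line. By the study's design their sperm brought either Nipbl Flox, which counts as wild-type, or the null allele Nipbl FIN. A Flox/+ father also has a + allele to pass on. The titles do not name Flox, so whether the wild_type and Isl1_het hearts had Flox or + is not settled here. Whether a heart also carried Stra8-iCre is not given in the labels. The labels do not say whether libraries are single hearts or pools, so p-values measure the spread between these libraries.

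Isl1 encodes a LIM-homeodomain transcription factor of the second heart field, the progenitor pool that adds cells to the outflow tract, the right ventricle and the atria. It is switched off in most progenitors as they turn into cardiomyocytes and stays on in the sinoatrial node and in some neurons. Nipbl encodes the protein that loads cohesin rings onto DNA, where they form loops between distant sites.

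Library totals lay between 23.4 and 51.0 mega-counts (median 36.2), and 15046 of 25239 genes passed the filter on low counts. Of 153 pairs of libraries of 1 genotype, none agreed within sampling noise. Each label holds a set number after the letters IVF, whose meaning it does not state. Set 1 held 3 wild_type and 3 Isl1_het libraries, sets 2, 5 and 6 held all 4 genotypes, and set 7 held double_het replicate 2 alone. The set term fits that library exactly, so the fitted values below rest on 36 libraries, 17 of them Isl1 +/-. Heart muscle markers were high throughout: the summed level of 7 ventricular genes was 10668 to 17736 CPM (counts scaled to a common library total) in Isl1 +/+ and 9703 to 15691 CPM in Isl1 +/- hearts. The library labelled Nipbl_het replicate 2 stood apart. Its Nipbl level, 72.4 CPM, was the highest of the 18 Nipbl +/- libraries and went against its label. The next highest, double_het replicate 2 at 51.5 CPM, also lay within the wild_type range of 47.6 to 78.8 CPM, while the other 16 were at 27.1 to 45.6 CPM. As the lone library of set 7 double_het replicate 2 does not inform the changes fitted with a set term, but it counts among the 9 double_het libraries in levels, ranges, scaling and the filter, and 25 of the 34 genes described below were called without it. For Nipbl_het replicate 2 the main results are given with and without that library.

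The targeted gene was examined first. Isl1 (chr13:116298270-116309688, minus strand, GRCm38) was at 5.03, 9.11 and 17.5 CPM (lowest, median and highest library) in the 19 Isl1 +/+ hearts and at 4.38, 7.02 and 15.1 CPM in the 18 Isl1 +/- hearts. The groups overlapped, with 2 Isl1 +/- hearts below every Isl1 +/+ heart. By genotype, Isl1 averaged 7.37 ± 2.24 CPM in wild_type (SD, n = 10) and 6.28 ± 1.76 CPM in Isl1_het (SD, n = 9). Nipbl_het hearts averaged 13.0 ± 2.82 CPM (SD, n = 9). Double_het hearts were lower, at 9.49 ± 3.51 CPM (SD, n = 9). With Nipbl genotype and set as covariates, the log2 change of Isl1 was −0.32 (SE 0.13, unadjusted p 0.0224, adjusted p 0.337, edgeR), a fold of 0.800 that did not pass the threshold over all genes. It was below 0 in each part of the data: −0.49, −0.35, −0.21 and −0.41 in sets 1, 2, 5 and 6 alone, −0.23 (SE 0.16) in Nipbl +/+ hearts alone and −0.43 (SE 0.21) in Nipbl +/- hearts alone, where it was −0.44 without Nipbl_het replicate 2. Of 17 Isl1 +/- libraries that had Isl1 +/+ libraries of the same set and Nipbl genotype, 13 lay below the mean of those. The Isl1 level therefore did not separate single libraries by their label, and the labels were taken as given. A count over the whole gene also includes reads of the allele that carries Cre, as far as that allele is transcribed.

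Nipbl was at 27.1, 52.7 and 78.8 CPM (lowest, median and highest) in Isl1 +/+ and at 28.2, 51.8 and 72.9 CPM in Isl1 +/- hearts. Its log2 change with Isl1 genotype was −0.022 (SE 0.079, adjusted p 0.924, edgeR), and 0.058 without Nipbl_het replicate 2. Isl1_het hearts carried Cre, which can recombine a Flox allele where a heart had one. Nipbl was at 52.0, 61.1 and 72.9 CPM there (lowest, median and highest of 9 libraries) and at 47.6, 57.0 and 78.8 CPM in the 10 wild_type hearts, a log2 change of 0.067 in Nipbl +/+ hearts alone.

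**Figure D1:**
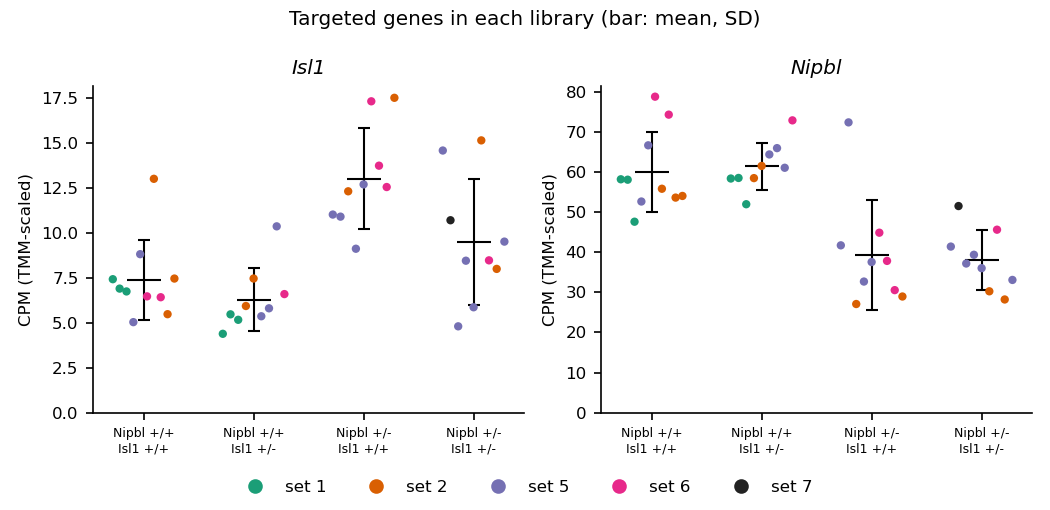
Isl1 (left) and Nipbl (right) in CPM after TMM scaling, 1 point per library, by genotype, coloured by set number. Bars show the mean and SD. The Isl1 points of Isl1 +/+ and Isl1 +/- hearts overlap within each Nipbl genotype, and 1 Nipbl_het library lies at 72.4 CPM of Nipbl.

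Isl1 genotype was associated with few genes and small changes. At an adjusted p under 0.05, 34 of 15046 genes were called, 0.226% of those tested: 28 were higher in Isl1 +/- hearts (0.186%) and 6 were lower (0.0399%). The median absolute log2 change of the 34 was 0.46, and only Calb2 changed by more than 1 on the log2 scale. At an unadjusted p under 0.05 there were 1830 genes (12.2%), 940 higher (6.25%) and 890 lower (5.92%). Extracellular matrix proteins, surface and signalling proteins and proteins known from kidney podocytes and mesothelium were among the products of the 28 higher genes, beside others of unrelated kinds. The lower ones include the neural and eye factor Pax6 and the phosphatase inhibitor Ppp1r17. These roles are background, and no role was tested for enrichment. For none of the 34 genes did the 18 Isl1 +/- libraries separate from the 19 Isl1 +/+ libraries. Set against the mean of the Isl1 +/+ libraries of its own set and Nipbl genotype, an Isl1 +/- library stood on the called side in 15 to 17 of 17 cases for each gene (14 to 17 with Nipbl_het replicate 2 left out of those means, when Septin4 went from 16 to 14 and 6 other genes, Pax6 and Clca3a1 among them, lost 1 case each).

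**Figure D2:**
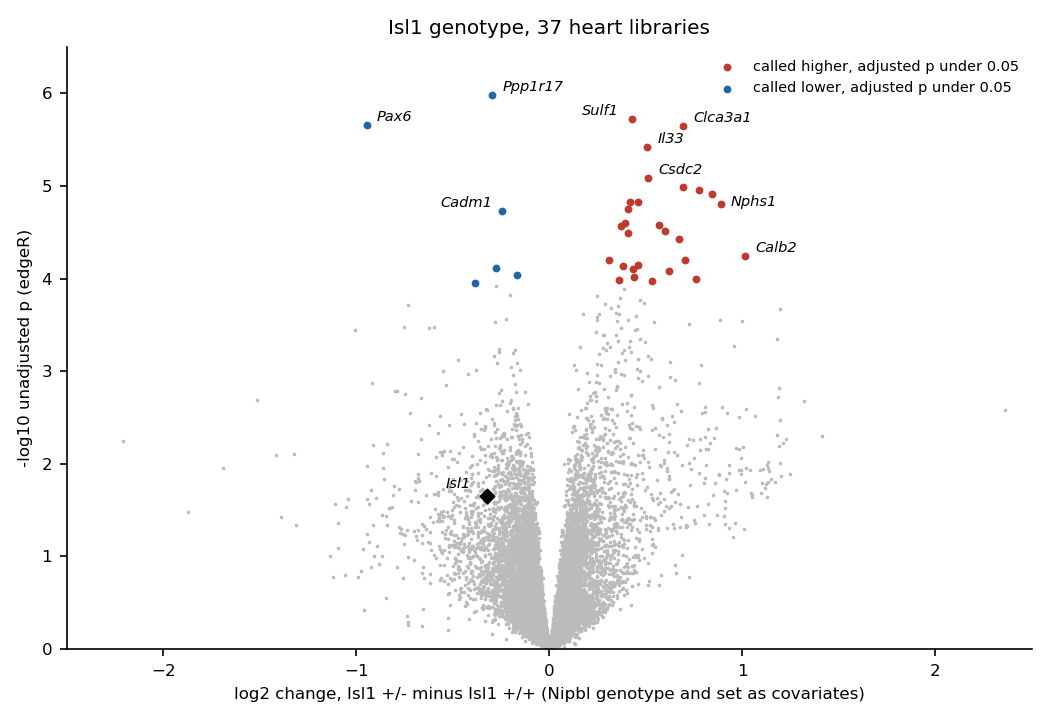
Log2 change of each of 15046 genes (horizontal axis, Isl1 +/- minus Isl1 +/+, with Nipbl genotype and set as covariates) against −log10 of the unadjusted edgeR p (vertical axis). Coloured points are the 28 genes called higher and the 6 called lower, and the diamond is Isl1 at −0.32.

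Among the higher genes, Kirrel2, Nphs1 and Synpo are known from podocytes, the filtration cells of the kidney, and Upk3b and Calb2 from mesothelium, the sheet that covers the heart and other organs. Kirrel2 encodes a nephrin-like adhesion protein. It was at 1.72, 7.90 and 9.81 CPM (lowest, median and highest) in Isl1 +/+ hearts and at 4.69, 11.0 and 14.7 CPM in Isl1 +/- hearts. The groups overlapped, but 14 of 18 Isl1 +/- libraries lay above every Isl1 +/+ library, and the lowest values of both groups came from set 1. The change was 1.62-fold (log2 change 0.69, SE 0.13, adjusted p 0.0195, edgeR).

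Nphs1 encodes nephrin, the core of the podocyte slit diaphragm, and lies next to Kirrel2. It stood at 0.390, 2.08 and 3.21 CPM in Isl1 +/+ and at 1.05, 3.46 and 4.60 CPM in Isl1 +/- hearts, again with overlap and with 12 Isl1 +/- libraries above every Isl1 +/+ library. The change was 1.85-fold (log2 change 0.89, SE 0.18, adjusted p 0.0195, edgeR). The pair is divergent: Kirrel2 (chr7:30447766-30457515, minus strand) and Nphs1 (chr7:30458207-30488623, plus strand) start 691 bases apart in the RefSeq annotation of GRCm38.p6. Synpo, an actin-associated protein of podocytes and dendritic spines, changed less (1.24-fold, log2 change 0.31, SE 0.067, adjusted p 0.0408, edgeR).

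Upk3b encodes a uroplakin that marks mesothelium and epicardium. It was at 75.1, 174 and 255 CPM in Isl1 +/+ and at 110.3, 220.3 and 285 CPM in Isl1 +/- hearts. The ranges overlapped, 5 Isl1 +/- libraries exceeded every Isl1 +/+ library, and 16 of 17 stood above their matched mean. It rose 1.33-fold (log2 change 0.41, SE 0.082, adjusted p 0.0203, edgeR).

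Extracellular matrix genes made up a further 6 of the higher genes. Sulf1 encodes a sulfatase that trims heparan sulfate outside the cell and so alters growth factor binding. It ran at 22.5, 48.6 and 66.6 CPM (lowest, median and highest) in Isl1 +/+ and at 33.6, 64.0 and 83.7 CPM in Isl1 +/- hearts. Of the 18 Isl1 +/- libraries, 8 lay above every Isl1 +/+ library, and 16 of 17 above their matched mean. The change was 1.34-fold (log2 change 0.43, SE 0.075, adjusted p 0.00841, edgeR), the smallest p among the higher genes. Egfl6, a secreted matrix protein with EGF domains, was at 0.148, 2.35 and 5.30 CPM in Isl1 +/+ and at 0.964, 3.71 and 5.72 CPM in Isl1 +/- hearts. Its groups overlapped widely across sets, while 17 of 17 Isl1 +/- libraries lay above their matched mean (1.80-fold, log2 change 0.84, SE 0.17, adjusted p 0.0195, edgeR). Its raw counts were as low as 5 in a library. The proteoglycans Fmod (0.67) and Bgn (0.38), the elastic fibre protein Fbln2 (0.37) and the laminin chain Lamc3 (0.76) had log2 changes with SEs of 0.077 to 0.17 and edgeR adjusted p from 0.0239 to 0.0481.

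A group of 8 higher genes encodes surface, channel and signalling proteins. Clca3a1 belongs to a family of chloride channel accessory proteins. It was at 3.83, 10.4 and 17.4 CPM in Isl1 +/+ and at 8.39, 14.7 and 22.1 CPM in Isl1 +/- hearts, with overlap between the groups and 17 of 17 Isl1 +/- libraries above their matched mean. The change was 1.62-fold (log2 change 0.69, SE 0.12, adjusted p 0.00841, edgeR). Clca3a1 has close paralogs, between which shared reads could be split, so its value is uncertain to that extent. Il33, an alarm cytokine released from damaged barrier and endothelial cells, was at 1.25, 2.63 and 3.56 CPM in Isl1 +/+ and at 1.64, 3.63 and 4.87 CPM in Isl1 +/- hearts. Here 10 Isl1 +/- libraries lay above every Isl1 +/+ library (1.42-fold, log2 change 0.51, SE 0.092, adjusted p 0.0114, edgeR). The remaining members were Dpp4, a dipeptidyl peptidase that cleaves chemokines (0.42), the prokineticin receptor Prokr2 (0.60) and the potassium channel accessory subunit Kcne1l (0.62). With them rose Smpd3, a sphingomyelinase that makes ceramide (0.57), the membrane scaffold stomatin, Stom (0.39), and Hpgd, which inactivates prostaglandins (0.53). Their SEs on the log2 scale were 0.08 to 0.14 and their adjusted p 0.0195 to 0.0481 (edgeR).

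Genes of blood and vessel cells were represented by Vwf, the von Willebrand clotting factor of endothelium (log2 change 0.36, adjusted p 0.0481, edgeR), and Dock2, a Rac activator of blood cells (0.46, adjusted p 0.0436, edgeR). Calb2 encodes calretinin, a calcium-binding protein of neurons and mesothelium. It had low levels, at 0.0605, 0.615 and 2.73 CPM in Isl1 +/+ and 0.283, 0.984 and 3.54 CPM in Isl1 +/- hearts, with raw counts from 2 to 114 and only 2 Isl1 +/- libraries above every Isl1 +/+ library. Its change was 2.02-fold (log2 change 1.02, SE 0.22, adjusted p 0.0408, edgeR), and it was called in 14 of 37 fits that left out 1 library. Csdc2, an RNA-binding cold shock domain protein, was at 2.44, 6.46 and 12.1 CPM in Isl1 +/+ and 4.09, 7.98 and 12.6 CPM in Isl1 +/- hearts, which overlapped over most of their range (1.43-fold, log2 change 0.51, SE 0.10, adjusted p 0.0195, edgeR). The N-acetylglucosaminyltransferases B3gnt7 (0.41) and B3gnt9 (0.44), the fibrocystin-like membrane protein Pkhd1l1 (0.70), the transmembrane genes Tmem255a (0.77) and Tmem151a (0.46) and Zbtb8b (0.43) complete the 28 log2 changes.

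The 6 lower genes had mostly small changes. Ppp1r17, an inhibitor of protein phosphatases best known from cerebellar Purkinje cells, had the smallest p of all genes. It was at 24.4, 30.2 and 39.2 CPM (lowest, median and highest) in Isl1 +/+ and at 21.7, 25.7 and 40.4 CPM in Isl1 +/- hearts. The highest Isl1 +/- value was double_het replicate 2, the lone library of set 7, which is above every Isl1 +/+ library and does not inform the fit. Another 6 Isl1 +/- libraries lay below every Isl1 +/+ library. The fold was 0.814 (log2 change −0.30, SE 0.05, adjusted p 0.00841, edgeR). Pax6, a paired-box factor of eye, brain and pancreas, was low in all libraries, with 4 to 47 raw counts. It was at 0.251, 0.671 and 1.26 CPM in Isl1 +/+ and at 0.122, 0.411 and 0.860 CPM in Isl1 +/- hearts, and 17 of 17 Isl1 +/- libraries lay below their matched mean. The fold was 0.519 (log2 change −0.95, SE 0.17, adjusted p 0.00841, edgeR), the largest decrease among called genes.

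Cadm1, an immunoglobulin-type adhesion protein, was at 33.0, 46.8 and 57.8 CPM in Isl1 +/+ and at 30.4, 39.7 and 50.6 CPM in Isl1 +/- hearts. It too was below the matched mean in 17 of 17 libraries despite the overlap (log2 change −0.24, SE 0.049, adjusted p 0.0203, edgeR). Septin4, a filament-forming GTPase (−0.28), Clic6, of the chloride intracellular channel family (−0.39), and Pth1r, the receptor of parathyroid hormone (−0.17), had log2 changes called at adjusted p from 0.0436 to 0.0499 (edgeR). In the GENCODE M21 annotation exons of Pth1r overlap those of Myl3 on the other strand. Myl3 is a ventricular myosin light chain, at a mean of 11.3 on the log2 CPM scale, and its own log2 change was −0.22 (adjusted p 0.361, edgeR). Whether strand was used in counting is not given in the sources used here, so the value of Pth1r is uncertain. Exons of Smpd3, Tmem255a and B3gnt9 overlap Prmt7, Zbtb33 and D230025D16Rik, whose log2 changes were 0.0049, 0.075 and 0.014.

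**Figure D3:**
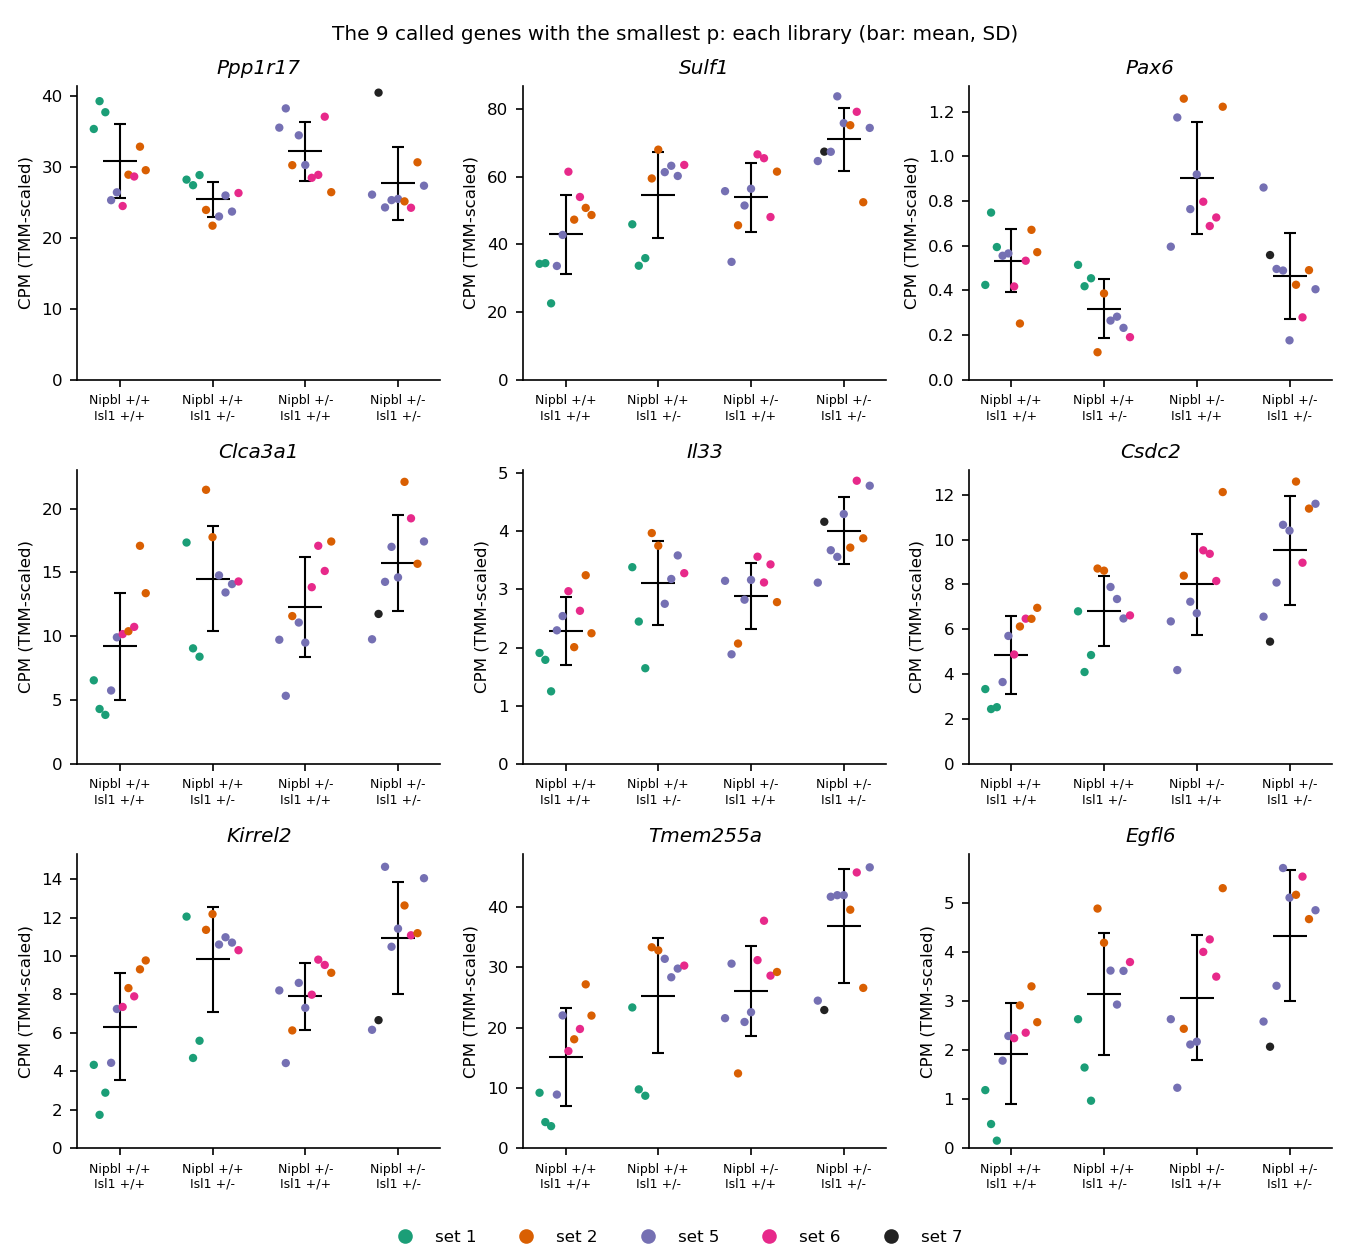
CPM after TMM scaling for the 9 called genes with the smallest p, 1 point per library by genotype, coloured by set, with the mean and SD as bars. Within each Nipbl genotype the Isl1 +/- mean is lower for Ppp1r17 and Pax6 and higher for the other genes, and points of the groups overlap in each panel.

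Promoter sequence was examined for the binding words of LIM and other homeodomain factors. Windows of 250 bases before to 50 after the start were taken from RefSeq (GRCm38.p6), which had one for 19 of the 28 higher and 3 of the 6 lower genes. Where more than 1 start was listed for a gene, as for Pax6 (2) and Pth1r (3), only the first was searched. Both strands were searched for CTAATG, a reported Isl1 site, and TAATTA, a homeodomain core, which cannot overlap each other. CTAATG was in 0 of 19 higher and 0 of 3 lower promoters, against 552 of 11802 promoters of tested genes (4.68%). TAATTA was in 0 of 19 higher promoters and 1 of 3 lower ones, that of Pth1r, against 288 of 11802 (2.44%). These windows say nothing of distant enhancers, and a match is a description of letters. Printed 5′ to 3′ are the promoters of the higher gene and the lower gene with the smallest p among those with a window. The Kirrel2 side of the divergent pair and the 1 promoter with a match, where capitals mark TAATTA, were chosen after the values were seen.
Clca3a1 (chr3:144760928-144761227, minus strand): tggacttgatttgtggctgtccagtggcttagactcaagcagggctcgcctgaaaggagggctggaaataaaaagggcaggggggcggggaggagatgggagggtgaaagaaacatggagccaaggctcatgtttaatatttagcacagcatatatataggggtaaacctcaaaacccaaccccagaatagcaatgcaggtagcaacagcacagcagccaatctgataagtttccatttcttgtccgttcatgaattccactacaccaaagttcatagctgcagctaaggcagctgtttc
Pax6 (chr2:105668646-105668945, plus strand): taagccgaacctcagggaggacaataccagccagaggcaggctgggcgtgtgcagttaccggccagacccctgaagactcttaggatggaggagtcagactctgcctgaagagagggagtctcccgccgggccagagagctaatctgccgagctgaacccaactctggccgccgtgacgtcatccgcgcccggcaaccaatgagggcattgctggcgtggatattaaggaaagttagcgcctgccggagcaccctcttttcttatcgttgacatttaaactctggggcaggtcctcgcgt
Kirrel2 (chr7:30457466-30457765, minus strand): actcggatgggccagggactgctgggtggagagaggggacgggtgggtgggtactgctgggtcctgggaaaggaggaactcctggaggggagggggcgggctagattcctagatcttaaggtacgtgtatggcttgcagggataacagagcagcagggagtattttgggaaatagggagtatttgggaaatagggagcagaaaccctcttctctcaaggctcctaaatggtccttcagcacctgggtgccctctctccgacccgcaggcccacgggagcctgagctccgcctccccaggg
Pth1r (chr9:110747096-110747395, minus strand): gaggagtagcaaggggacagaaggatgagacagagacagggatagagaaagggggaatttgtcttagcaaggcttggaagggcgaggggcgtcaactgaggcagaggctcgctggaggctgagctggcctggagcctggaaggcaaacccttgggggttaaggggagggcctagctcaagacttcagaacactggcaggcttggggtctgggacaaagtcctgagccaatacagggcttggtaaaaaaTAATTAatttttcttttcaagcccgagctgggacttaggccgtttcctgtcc

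The direction of the 34 genes was the same in both Nipbl backgrounds. In Nipbl +/+ hearts alone (9 Isl1_het against 10 wild_type) and in Nipbl +/- hearts alone (9 double_het against 9 Nipbl_het) all 34 had a log2 change in the called direction, each with an unadjusted p under 0.05 in both. Without Nipbl_het replicate 2, Nipbl +/- hearts alone again had all 34 in the called direction, 33 of them at an unadjusted p under 0.05, the exception being Clic6 (−0.24, unadjusted p 0.102, edgeR). These subsets are part of the 37 libraries that chose the genes, so this is a description and no independent support. Pax6 had a log2 change of −0.82 (SE 0.22) in Nipbl +/+ and −1.08 (SE 0.26) in Nipbl +/- hearts. Sulf1 gave 0.41 and 0.45, and Nphs1 0.95 and 0.80. Differences between backgrounds went either way: Stom was at 0.53 (SE 0.10) and 0.26 (SE 0.11), and B3gnt7 at 0.28 and 0.55. The values in Nipbl +/- hearts without Nipbl_het replicate 2 were −1.01 for Pax6, 0.37 for Sulf1, 0.69 for Nphs1, 0.37 for Stom and 0.53 for B3gnt7.

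The test of a difference between backgrounds, the interaction term, gave 0 genes at an adjusted p under 0.05 (edgeR), with 411 genes at an unadjusted p under 0.05 and a smallest adjusted p of 0.999. None of the 34 had an interaction p under 0.05. Without Nipbl_het replicate 2 the interaction again gave 0 genes (485 at an unadjusted p under 0.05). A missed threshold does not show that the backgrounds act alike: the interaction of Stom was −0.24 and that of B3gnt7 0.23 on the log2 scale. Neither background alone gave a call over all genes: 0 in Nipbl +/+ hearts (2471 at an unadjusted p under 0.05, smallest adjusted p 0.161, edgeR) and 0 in Nipbl +/- hearts (700, smallest adjusted p 0.516, edgeR). Without Nipbl_het replicate 2, Nipbl +/- hearts alone gave 1 call (854 at an unadjusted p under 0.05, edgeR), which is not among the 34: Pitx1, a homeodomain factor of the hindlimb and pituitary, at −1.78 (adjusted p 0.0217), against −1.62 (adjusted p 0.516) with that library.

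Across sets, 34 of 34 genes had the called direction in sets 2, 5 and 6 alone, and 33 of 33 in set 1, where Calb2 did not pass the filter. Each set is part of the libraries that chose the genes, so this too is no independent support. The size varied. Log2 changes in sets 1, 2, 5 and 6 alone were a median of 1.41, 0.755, 1.15 and 0.573 of those in all 37 libraries. Nphs1 was at 1.71 (SE 0.52) in set 1, 0.56 in set 2, 0.95 in set 5 and 0.52 in set 6 on the log2 scale. Pax6 was nearest to 0 in set 1, with sets 1, 2, 5 and 6 at −0.35, −1.22, −0.92 and −1.38. Changes in set 6, with 2 Isl1 +/- libraries, came close to 0 for Lamc3 (0.034), Vwf (0.059) and Csdc2 (0.077). A test of whether the Isl1 change differs between sets gave 0 genes (186 at an unadjusted p under 0.05, edgeR), and among the 34 Csdc2 (0.0430) and Smpd3 (0.0152) had unadjusted p under 0.05. Set 5 alone again had 34 of 34 in the called direction without Nipbl_het replicate 2, with Nphs1 at 0.82 and Pax6 at −0.81. Leaving out a set is a check on libraries it did not use. Without set 1, 5 genes were called (Pax6, Sulf1, Egfl6, Il33 and Upk3b), and all 5 had the same direction in set 1. Without set 6, 7 genes were called (Sulf1, Ppp1r17, Cadm1, Csdc2, Clca3a1, Clic6 and Vwf), and all 7 had the same direction in set 6, though Csdc2 (0.077) and Vwf (0.059) were close to no change there. The share of all genes that kept direction in a left-out set was not computed, so these counts have no background. Without set 2 or set 5 no gene was called (1454 and 1267 at an unadjusted p under 0.05, edgeR), which leaves nothing to check there. A fit with no set term also gave 0 genes (1062 at an unadjusted p under 0.05, smallest adjusted p 0.145, edgeR).

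**Figure D4:**
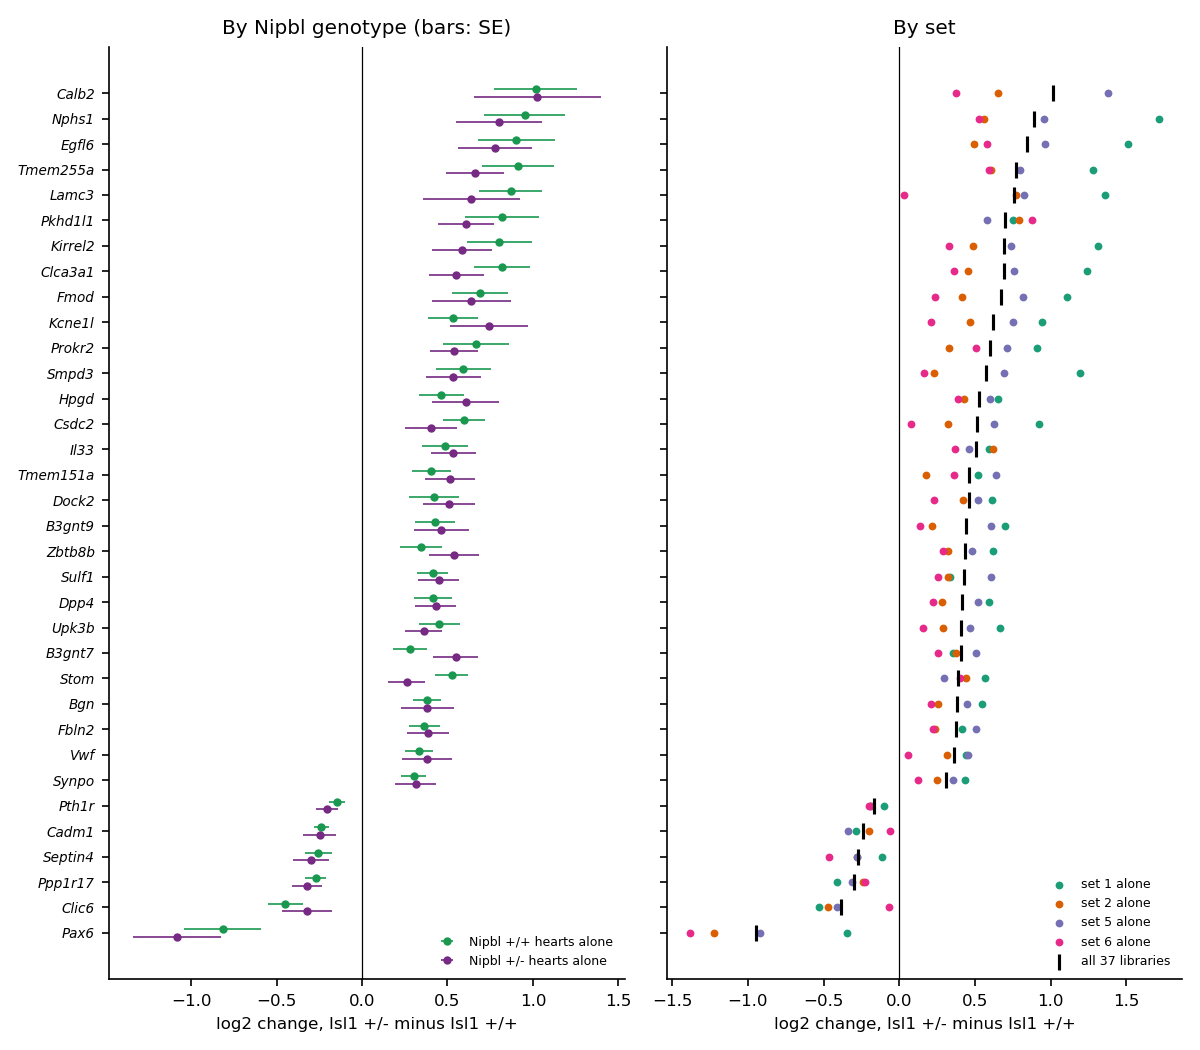
Log2 change (Isl1 +/- minus Isl1 +/+) of each of the 34 called genes, ordered by size. Left: Nipbl +/+ and Nipbl +/- hearts fitted alone, with SE. Right: each set fitted alone (points) and the fit of all 37 libraries (bars). The points of each gene lie on 1 side of 0.

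The number of calls depended on single libraries. It ran from 14 without wild_type replicate 4 to 70 without wild_type replicate 7. Leaving out any 1 of 21 libraries brought it to between 14 and 22: wild_type replicates 2, 3, 4, 5 and 8, Nipbl_het replicates 1, 3, 4 and 5, Isl1_het replicates 1, 2, 4, 5, 6 and 7 or double_het replicates 3, 4, 5, 6, 7 and 9. Of the 34 genes, 13 were called in all 37 such fits: Ppp1r17, Sulf1, Pax6, Clca3a1, Il33, Csdc2, Kirrel2, Tmem255a, Egfl6, Dpp4, Nphs1, Upk3b and Cadm1. The other 21 lost the call in at least 1 fit, and Hpgd kept it in 7 of 37.

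Without the library labelled Nipbl_het replicate 2, an Isl1 +/+ library, 64 genes were called (0.425% of 15072 tested), 39 higher and 25 lower, and 32 of the 34 were among them. B3gnt9 (adjusted p 0.0555, edgeR) and Hpgd (adjusted p 0.0583, edgeR) were not. Of the members of the gene lists described below, 4 entered: Fgf10, Nkx2-5, Aldh1a2 and Mycn. The growth factor of second heart field progenitors, Fgf10, was at 1.71, 2.88 and 15.2 CPM in the 19 Isl1 +/+ and 1.46, 2.18 and 3.61 CPM in the 18 Isl1 +/- hearts, and 17 of 17 Isl1 +/- libraries lay below their matched mean. The highest Isl1 +/+ value is that of Nipbl_het replicate 2 itself. The other 18 reached at most 4.98 CPM, and with means taken over them 17 of 17 Isl1 +/- libraries again lay below. Its log2 change was −0.75 (adjusted p 0.0796, edgeR) with that library and −0.48 (SE 0.10, adjusted p 0.0237, edgeR) without it. Nkx2-5, a core cardiac homeodomain factor, was at 217, 276 and 362 CPM in Isl1 +/+ and 177, 247 and 359 CPM in Isl1 +/- hearts. The ranges overlapped over most of their length, and its log2 change was −0.20 (adjusted p 0.0608, edgeR) with the library and −0.22 (adjusted p 0.0349, edgeR) without it. Aldh1a2, which makes retinoic acid and is active in epicardium, went from 0.45 (adjusted p 0.0796, edgeR) to 0.51 (adjusted p 0.0213, edgeR). Mycn, a growth regulator of early cardiomyocytes, went from −0.16 to −0.20 (adjusted p 0.0459, edgeR).

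The 5 genes just outside the threshold in all 37 libraries were Mtmr7 (−0.28, adjusted p 0.0514), Art4 (0.39, 0.0535), Nkx2-5, Serping1 (0.25, 0.0608) and Prrg3 (0.36, 0.0623), as log2 changes and edgeR adjusted p. Just inside it were Hpgd (0.53, 0.0481) and Clic6 (−0.39, 0.0499).

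Markers of some other cell types stood higher in Isl1 +/- hearts on the unadjusted test. Of the erythroid list, 9 of 11 genes were tested, and 9 of 9 were higher at an unadjusted p under 0.05 (6.25% of all genes) and 0 at an adjusted p under 0.05. Their median log2 change was 1.05, with a range of 0.71 to 1.19, against a median of −0.014 over all genes. Without Nipbl_het replicate 2 the median was 0.93, and 7 of 9 were higher at an unadjusted p under 0.05 (7.74% of all genes). The red cell anion exchanger Slc4a1 had the largest value, at 1.19 (SE 0.44, adjusted p 0.285, edgeR). The summed level of the list was 503, 10012 and 106585 CPM (lowest, median and highest) in Isl1 +/+ and 827, 15005 and 54193 CPM in Isl1 +/- hearts, a wide overlap. In bulk libraries more cells of a type and more RNA per cell cannot be told apart. With the summed erythroid level as a further covariate, 34 of 34 genes kept direction and an unadjusted p under 0.05. Their log2 changes were a median of 0.908 of those in the main comparison (range 0.679 to 1.12), while the number of calls was 0 (1894 genes at an unadjusted p under 0.05) and the adjusted p of the 34 ran from 0.0759 to 0.367 (edgeR).

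Epicardial markers, like those of cushion mesenchyme and endothelium, also held members that stood higher on this test. Of 10 epicardial genes tested, 1 was called, Upk3b (0.186% of all genes were called higher), 6 were higher at an unadjusted p under 0.05 (6.25% of all genes) and 9 had a log2 change above 0 (44.9% of all genes), with a median of 0.20 (0.20 and again 6 without Nipbl_het replicate 2, against 7.74% of all genes). The summed level was 417, 599.7 and 973 CPM in Isl1 +/+ and 437, 718 and 1193 CPM in Isl1 +/- hearts. Aldh1a2 stood at 0.45, Sema3d, a guidance ligand, at 0.45, the transcription factors Tcf21 and Tbx18 at 0.29 and 0.16, and Wt1 at 0.10 (adjusted p 0.436, edgeR), all as log2 changes. With the mean of the other 9 epicardial markers as a covariate, a choice made after seeing the data, the 34 log2 changes were a median of 0.657 of their size (0.382 to 1.04) and no gene was called (1318 at an unadjusted p under 0.05, smallest adjusted p 0.313, edgeR). What part these marker levels play in the 34 genes was not tested.

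Other marker lists held no called gene apart from Pax6. Of 7 ventricular markers 4 were lower at an unadjusted p under 0.05 (5.92% of all genes) and 0 had a log2 change above 0 (44.9% of all genes), with a median of −0.16. Atrial markers had a median of 0.035, with Sln, a regulator of the calcium pump, at 0.85 (adjusted p 0.248, edgeR) and as few as 0 counts in a library. Of 10 endothelial markers 3 were higher at an unadjusted p under 0.05 (6.25% of all genes; median 0.10), and of 11 cushion mesenchyme markers 5 were higher and 1 lower (median 0.11), with the proteoglycan Dcn at 0.46 (adjusted p 0.116, edgeR). Of 16 neural genes 11 were tested. Besides Pax6, Elavl3 (−0.47) and Tubb3 (−0.24) were lower and Sox2 (0.72) and Isl2 (0.55) higher at an unadjusted p under 0.05, against the same shares of all genes, and the median was 0.0078. Lists of neural crest, leukocyte and liver genes had no member at an unadjusted p under 0.05. Of the foregut list 5 of 12 were tested, and Sox2 was its 1 such member. Leaving out Nipbl_het replicate 2 gave a median of −0.20 for ventricular markers, with 6 of 7 lower at an unadjusted p under 0.05 (9.73% of all genes). The median of atrial markers was then −0.0084 and that of neural genes −0.056, so both changed sign. In that fit 7.74% of all genes were higher, and endothelial markers again had 3 higher (median 0.09), cushion mesenchyme 6 higher and 2 lower (median 0.14), neural genes 1 higher and 4 lower, neural crest and leukocyte genes 1 higher each and liver genes 1 lower.

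Pathway lists around Isl1 held no gene called in all 37 libraries (0.226% of all genes). Of 24 second heart field genes and reported Isl1 targets, 4 were lower (5.92% of all genes) and 2 higher (6.25%) at an unadjusted p under 0.05, and the median was −0.038. The lower ones were Fgf10, Fgf8 (−0.55), a growth factor of outflow progenitors, Nkx2-5 and Wnt11 (−0.16), and the higher ones the forkhead factors Foxc1 (0.26) and Foxc2 (0.12). Fgf8 was at 0.753, 2.03 and 7.54 CPM in Isl1 +/+ and 0.749, 1.34 and 3.83 CPM in Isl1 +/- hearts, and 16 of 17 Isl1 +/- libraries lay below their matched mean (SE 0.15, adjusted p 0.132, edgeR). Of the 13 genes of the LIM complex, which bridges Isl1 to other factors through Ldb1, Isl1 and Ssbp2 (−0.09) were lower and Isl2 higher. Sinoatrial node genes had 1 of 16 higher and 2 lower, and outflow tract genes 1 of 14 higher and 3 lower, each at an unadjusted p under 0.05 and against the same shares of all genes. With Nipbl_het replicate 2 left out, when 7.74% of all genes were higher and 9.73% lower, second heart field genes had 4 higher and 5 lower (median −0.022), LIM complex genes 0 higher and 1 lower, sinoatrial node genes 1 higher and 4 lower and outflow tract genes 2 higher and 5 lower.

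Signalling and contraction lists held no called gene either. Of 23 Wnt genes tested 4 were higher, among them the agonist Rspo1 (0.47, adjusted p 0.0636, edgeR), and 5 were lower at an unadjusted p under 0.05 (6.25% and 5.92% of all genes). Of 26 BMP and FGF genes 5 were lower, Fgf8 and Fgf10 among them, of 14 Notch genes 1 was higher (Heyl, 0.36) and 1 lower (Hey2, −0.18), and of 17 retinoic acid genes 1 was higher (Aldh1a2). Of 18 working chamber channel and calcium genes 2 were higher and 1 lower. Of 20 sarcomere genes 1 was lower (Myl3), 4 had a log2 change above 0 (44.9% of all genes) and the median was −0.083. Trabecular, immediate early and cohesin lists had 0 members at an unadjusted p under 0.05, with medians of 0.045, −0.077 and 0.0017. Of 18 hypoxia and glycolysis genes 6 were lower (5.92% of all genes) and 0 had a log2 change above 0 (44.9%), at a median of −0.23. That median was −0.028 without Nipbl_het replicate 2, whose summed level of these genes was 38963 CPM, against at most 22874 CPM in Isl1 +/- hearts. Without it 2 of these 18 genes were lower at an unadjusted p under 0.05 and 8 had a log2 change above 0, against 9.73% and 47.8% of all genes. Other lists also had other counts without that library, when 7.74% of all genes were higher. Sarcomere genes then had 7 lower (median −0.10), and cohesin genes had 2 higher and 14 of 15 above 0 (median 0.042). Immediate early genes had 1 higher and 2 lower, with a median of 3.22e-05, and trabecular genes 1 lower (median 0.037). Wnt genes had 3 higher and 7 lower, BMP and FGF genes 1 and 4, Notch genes 2 and 1, retinoic acid genes 1 and 1, and channel and calcium genes 3 and 1.

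**Figure D5:**
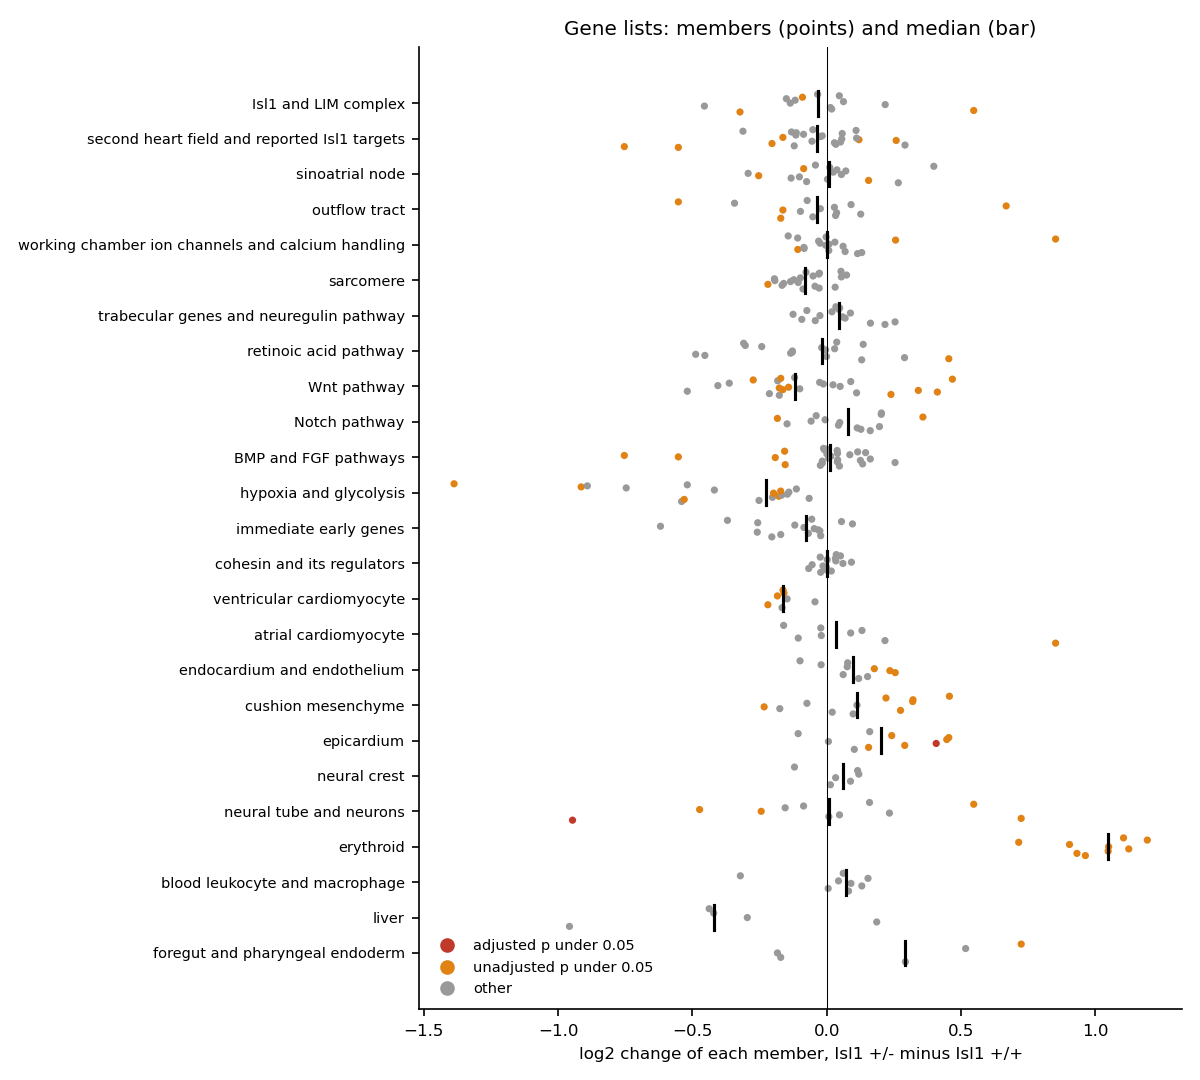
Log2 change (Isl1 +/- minus Isl1 +/+) of the tested members of 25 gene lists, 1 point per gene, with the list median as a bar and colours by edgeR p. The erythroid points all lie above 0.7, and 2 points, Upk3b and Pax6, pass the adjusted threshold.

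The called genes also had values for Nipbl genotype in the same fit, which uses the same libraries and called 640 of all genes (4.25%), 427 of them higher (2.84%). Without Nipbl_het replicate 2, whose Nipbl label is in doubt, it called 1057 of 15072 genes (7.01%). Of the 34 genes, 10 were also called for Nipbl genotype, 7 in the same direction and 3 in the opposite one, and these 10 were called with and without that library. The log2 change of Pax6 was −0.95 with Isl1 loss and 0.83 with Nipbl loss (adjusted p 0.00442, edgeR), and that of Clic6 −0.39 and 0.89 (adjusted p 3.44e-07, edgeR). Septin4 was at −0.28 with Isl1 loss and 0.29 with Nipbl loss (adjusted p 0.00690, edgeR). Without the library the Nipbl values of these 3 genes were 0.80, 0.86 and 0.27. The 7 genes called higher with both were Calb2, at 0.90 with Nipbl loss (0.95 without the library), Csdc2 at 0.50 (0.52), Tmem151a at 0.45 (0.48), Dock2 at 0.43 (0.44), B3gnt9 at 0.40 (0.42), B3gnt7 at 0.37 (0.38) and Upk3b at 0.32 (0.33). Kirrel2 and Nphs1 had values of 0.079 and −0.007 for Nipbl loss (0.11 and 0.027 without the library), neither past the threshold (adjusted p 0.858 and 0.993, edgeR).

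By Xist and Y-linked counts, 12 Isl1 +/+ hearts were female and 7 male, and 14 Isl1 +/- hearts were female and 4 male. Of the 34 genes, 4 are on the X chromosome: Tmem255a, Egfl6, Bgn and Kcne1l. The X-linked share of all genes tested was not computed, so the count has no background to be read against. With the Xist level as a covariate the log2 changes of these 4 genes were 0.77, 0.86, 0.38 and 0.63, against 0.77, 0.84, 0.38 and 0.62 without it.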

How the data were processed

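The authors deposited raw read counts by gene symbol. STAR, featureCounts, GRCm38 and mm10 are named, per the submitters' processing notes, without version, annotation or strand setting. RNA was extracted with the Monarch kit and libraries were made with NEBNext Ultra II RNA, per the labels' protocols. All 37 columns were used and 0 other columns of values were present. Genes passed filterByExpr by genotype (minimum count 10, total 15), were TMM-scaled and fitted by edgeR 4.0.16 quasi-likelihood (limma 3.58.1, R 4.3.3) with Isl1 genotype, Nipbl genotype and set number as additive factors. Tests were two-sided, with Benjamini-Hochberg adjustment over all 15046 genes and a threshold of 0.05. SEs were computed from the F statistic, and folds are on the fitted scale. CPM are TMM-scaled.

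Named genes were Isl1, Nipbl, all called genes (at most 40), the 5 just outside, and list members past the threshold or with the largest change. Others named from lists at an unadjusted p under 0.05 were chosen after their values were seen. The members and the 26 lists were chosen with earlier results of these data known. In data simulated from these libraries, genes with log2 changes of 0.5, 1 and 2 were recovered in 74.6%, 89.6% and 100% of cases, with 13 false calls, and data with no change gave 0 calls. The simulation changed more genes than were called here. It drew each gene independently, with no shifts shared between genes beyond those of Nipbl genotype and set. Its rates are thus not measures of recovery or false calls in the real libraries. Alternatives used DESeq2 1.42.0 and sva 3.50.0. Exon overlaps came from GENCODE M21, and 25041 symbols (99.2%) matched the RefSeq table. Figures used Python 3.11.15, pandas 2.3.3 and matplotlib 3.10.9. Without molecular identifiers, reads of 1 molecule are not independent.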

Additional observations from a re-analysis of the deposited data

Results flagged for a closer look

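For the 34 called genes, Isl1 and Nipbl, 144 groups of 1 gene in 1 genotype were examined for a library far from the others, measured on the log2 CPM scale with a prior count of 2, as its gap to the nearest library divided by the group's range. Chance alone passes the limit in about 1 group in 20, and 6 groups passed it. Ppp1r17 in double_het replicate 2 was the highest at 40.4 CPM, with the next at 30.6 CPM (gap ratio 0.542). Dpp4 in double_het replicate 1 was the lowest at 15.6 CPM, with the next at 20.8 CPM (0.502). B3gnt7 in Nipbl_het replicate 3 was the lowest at 4.33 CPM, with the next at 6.73 CPM (0.522). Fmod in the library labelled Nipbl_het replicate 2 was the lowest at 5.24 CPM, with the next at 16.2 CPM (0.638), and its log2 change was 0.67 with and 0.58 without that library. Dock2 was lowest in Nipbl_het replicate 3 at 2.40 CPM, with the next at 3.36 CPM (0.518), and in Isl1_het replicate 3 at 1.56 CPM, with the next at 2.81 CPM (0.598).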

How the results depend on the processing

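The 34 calls became 0 with no set term, with the erythroid or the epicardial level as covariate, in Nipbl +/+ or Nipbl +/- hearts alone, without set 2 or set 5, in sets 1, 2, 5 or 6 alone and in set 5 alone without Nipbl_het replicate 2. In Nipbl +/- hearts without that library there was 1 call. These subsets without it were chosen after seeing the data. They became 5 without set 1, 7 without set 6, 64 without Nipbl_het replicate 2, 61 without it and with the Xist level as covariate, 112 with DESeq2 and 189 with 2 surrogate variables. Leaving out 1 library gave 14 to 70. With title replicate numbers as a block in place of set number there were 9 calls, and with the block beside set number 33, 26 of them among the 34. The numbers pair no samples by their labels: deviations of same-numbered libraries correlated at −0.449 to 0.373 between wild_type and Isl1_het and −0.316 to 0.554 between Nipbl_het and double_het, and 1 of 9 and 2 of 9 correlated best with their own number. Other alternatives gave 26 to 38 calls, and all 34 genes kept their direction wherever they were tested. Higher genes were 82.4% of calls, 75.0% with RLE size factors, 75.9% with DESeq2, 93.9% with the block beside set number and 57.1% without set 6. The Nipbl log2 change with Isl1 genotype, −0.022, was 0.0566 with the block beside and 0.00695 in place of set number, 0.0548 with the erythroid level, 0.00744 with surrogate variables, 0.0672 in Nipbl +/+ hearts, 0.00503 with limma-voom, 0.0405, 0.102 and 0.0912 in sets 1, 2 and 6 alone and 0.0896 without set 5, and without single libraries it was −0.048 to 0.058, with 0.0521 under Xist and without Nipbl_het replicate 2, and without that library 0.074 in Nipbl +/- hearts and 0.0372 in set 5 alone. The cause of these shifts was not tested. The depth of 23.4 to 51.0 mega-counts leaves Pax6 and Calb2 at 4 to 47 and 2 to 114 counts per library, which limits the precision of their changes.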

Other observations

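Besides the list members named above, genes called only without the library labelled Nipbl_het replicate 2 covered several kinds of protein, and those named here were chosen after their values were seen. Lower in Isl1 +/- hearts were Pitx1 (log2 change −1.06, adjusted p 0.0429, edgeR), Hapln3, which links hyaluronan to proteoglycans (−0.41, adjusted p 0.0177), and the adhesion protein Alcam (−0.23, adjusted p 0.0253). Smarcd3, a subunit of the BAF chromatin remodelling complex in heart muscle, was lower by a small amount (−0.19, adjusted p 0.045, edgeR). Higher were Mylk, the myosin light chain kinase of smooth muscle (0.32, adjusted p 0.018), the tetraspanin Cd82 (0.46, adjusted p 0.0291) and the phospholipid transfer protein Pltp (0.43, adjusted p 0.0306, edgeR). With all 37 libraries Pitx1 was at −1.01 and Pltp at 0.16 on the log2 scale (adjusted p 0.0801 and 0.721, edgeR).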
